A study of Mus musculus with 45 samples.

Results

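The switch that brings an oocyte out of its long prophase arrest was followed through 10 genes, chosen by name for their roles around the kinase CDK1: Cdk1 itself, the B-type cyclins Ccnb1, Ccnb2 and Ccnb3, the activating phosphatases Cdc25a and Cdc25b, the inhibitory kinases Wee2 and Pkmyt1, and the kinases Mos and Mastl. The choice was made with earlier results of these data known. All 10 were found, each on 1 row, among the 55357 gene identifiers of a read count table for 45 single mouse oocytes. Chimeric follicles had been made by placing an oocyte in a follicle emptied of its own, followed by culture. The follicles named YY (n = 11) joined a young oocyte with young somatic cells, those named AY (n = 6) an aged oocyte with young somatic cells, and those named AA (n = 12) an aged oocyte with aged somatic cells. As controls, 8 young oocytes had been cultured in vitro, with no transfer named (in vitro young), and 8 had not been cultured (in vivo young). No aged oocyte without transfer and no young oocyte in aged somatic cells was analysed here, and strain, age in weeks, genotype, meiotic stage and the animal behind each oocyte are not given in the sources used here. Oocytes are labelled as biological replicates with no animal named, so the p-values below reflect the spread among these libraries only, which can be technical.

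CDK1 bound to a B-type cyclin is the activity long known as maturation-promoting factor. In the arrested oocyte, signalling through cyclic AMP keeps WEE2 active and CDC25B away from the nucleus, so CDK1 carries inhibitory phosphates. At resumption CDC25 removes them, active CDK1 shuts off its own inhibitors, MASTL (Greatwall) holds back the phosphatase PP2A that would undo CDK1's work, and MOS starts the MAP kinase arm that later keeps the egg arrested. Much of this control acts on protein, and oocytes store mRNA for later translation, so the transcript levels given here are not kinase activities.

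The site on which the opposing enzymes act lies near the start of the CDK1 protein. Between them, PKMYT1 and WEE2 modify threonine at codon 14 and tyrosine at codon 15, and CDC25 phosphatases act on both. In the coding sequence of the GENCODE M21 transcript these codons are shown in capitals because they are the point on which the switch turns. The printed stretch spans the junction of exons 2 and 3 (GRCm38, chr10:69346212-69350105, minus strand, with the intron between).
Cdk1 inhibitory site: attggagaaggtACTTACggtgtggtgtat

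Promoters were read from the RefSeq table on GRCm38.p6, as windows of 300 bases that run from 250 before to 50 after the start site, and 8 of the 10 genes matched. Pkmyt1 and Mos had no entry. Both strands were searched for the CCAAT box (CCAAT), for the cell cycle genes homology region, or CHR (TTTGAA), and for the E2F site (TTTGGCGC or TTTCGCGC). The CCAAT box occurred in 7 of the 8 windows, all but that of Ccnb3, while 37.4% of 32851 promoters of this length hold it. CHR letters occurred 2 times each in Cdk1 and Ccnb2 and in no other of the 8, against 17.9% of all promoters. E2F letters occurred 1 time each in Cdk1 and Cdc25a, against 0.813% of all. The 250 bases before the start site are printed for Cdk1, Ccnb2 and Cdc25a, which hold the CHR and E2F letters and whose transcripts took different courses between the groups. Capitals mark the motifs, written as they read on the gene's strand, so ATTGG is a CCAAT box on the other strand. A second CHR match of Ccnb2 begins at base 5 after the start site and is not printed. A match is a description of letters and not a binding site.
Cdk1, chr10:69352913-69353162, minus strand: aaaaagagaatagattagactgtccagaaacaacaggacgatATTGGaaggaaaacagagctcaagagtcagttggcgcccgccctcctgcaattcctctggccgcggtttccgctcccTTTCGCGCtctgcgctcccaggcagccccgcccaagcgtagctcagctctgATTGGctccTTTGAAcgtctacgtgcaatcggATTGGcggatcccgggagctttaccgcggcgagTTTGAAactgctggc
Ccnb2, chr9:70421555-70421804, minus strand: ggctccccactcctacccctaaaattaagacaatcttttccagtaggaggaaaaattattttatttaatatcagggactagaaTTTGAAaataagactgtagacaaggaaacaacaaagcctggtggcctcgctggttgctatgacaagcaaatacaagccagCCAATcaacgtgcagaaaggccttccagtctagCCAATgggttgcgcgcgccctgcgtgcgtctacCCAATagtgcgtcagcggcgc
Cdc25a, chr9:109875329-109875578, plus strand: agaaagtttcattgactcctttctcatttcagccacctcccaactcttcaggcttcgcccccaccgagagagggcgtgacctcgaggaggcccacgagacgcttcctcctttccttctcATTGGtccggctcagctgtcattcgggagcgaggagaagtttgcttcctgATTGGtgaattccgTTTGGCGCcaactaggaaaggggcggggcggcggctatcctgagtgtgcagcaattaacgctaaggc

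Total counts per library ran from 418703 to 2201980. Single genes of the switch held between 3 counts (Pkmyt1, in 1 oocyte) and 2249 counts (Ccnb1), so Pkmyt1 and Cdc25b carried the widest counting error. All 12 oocyte markers were present in every group, with a median summed level of 18914 to 27037 CPM (counts scaled to library size). Of the 12, Nlrp5, Zp1, Zp2 and Dppa3 were called higher in AA than in YY, and the others were not called. Nlrp5 rose by 1.37 ± 0.27 (log2, SE, edgeR quasi-likelihood test, Benjamini-Hochberg adjusted p = 0.000385). In YY against in vitro young, Nlrp5, Zp2, Zp3 and Gdf9 were called lower and the others were not called. The 14 granulosa and cumulus markers summed to a median of 75.96 CPM in YY (60.9 to 104), 104 in AY (71.5 to 208) and 113 in AA (73.8 to 257), against 64.1 in vivo and 89.3 in vitro. Of these 14, 5 were at 0 in every YY library, 4 in every AY library and 2 in every AA library, and Inha rose by 2.78 ± 0.49 (SE) on the log2 scale in AA over YY (edgeR quasi-likelihood test, Benjamini-Hochberg adjusted p = 0.000128). By the same edgeR test with Benjamini-Hochberg adjustment, Inhba rose by 1.99 ± 0.47 (adjusted p = 0.00133). Cyp19a1, at 0.37, and Nr5a2, at -0.22, were not called (adjusted p = 0.290 and 0.283). Some of these markers thus moved with the groups and others did not, and their part in the results below was not tested. Markers of theca and stroma had a median sum of at most 0.93 CPM. Libraries of 1 group also fell into sets that shared a pattern over 12 genes near absent in some libraries and abundant in others, 4 sets in YY, 2 in AY and 2 in AA. Whether a set comes from 1 animal is not given, and if it does, the p-values below are too small.

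Levels below are CPM with TMM scaling, given as lowest, median and highest oocyte of a group and as mean ± SD. Per kilobase of exon (GENCODE M21), the order of the switch genes in uncultured young oocytes ran from Mos, 401 ± 21.7 CPM per kb (SD, n = 8), over Ccnb1, Ccnb2 and Wee2, 331 ± 45.6, 271.8 ± 27.8 and 264 ± 46.2, to Mastl with 71.5 ± 16.9 and Cdk1 with 34.9 ± 2.86. Ccnb3 followed with 13.98 ± 2.92, and Cdc25a, Cdc25b and Pkmyt1 stood lowest with 7.50 ± 1.95, 7.37 ± 1.48 and 5.82 ± 2.13. Ranges of 1 SD overlapped between Ccnb1 and Ccnb2, between Ccnb2 and Wee2, and among the lowest 3, and not between the other neighbours. On this scale the inhibitor Wee2 and the cyclins Ccnb1 and Ccnb2 thus stood far above either Cdc25 gene, while Ccnb3 lay close to them. In AA the order was the same at the top and bottom except that Wee2, 314 ± 27.9 (SD, n = 12), stood above Ccnb2, 293 ± 20.2, and Pkmyt1, 3.70 ± 1.58, above Cdc25b, 3.42 ± 1.16, with overlapping 1 SD ranges in both pairs.

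**Figure D1:**
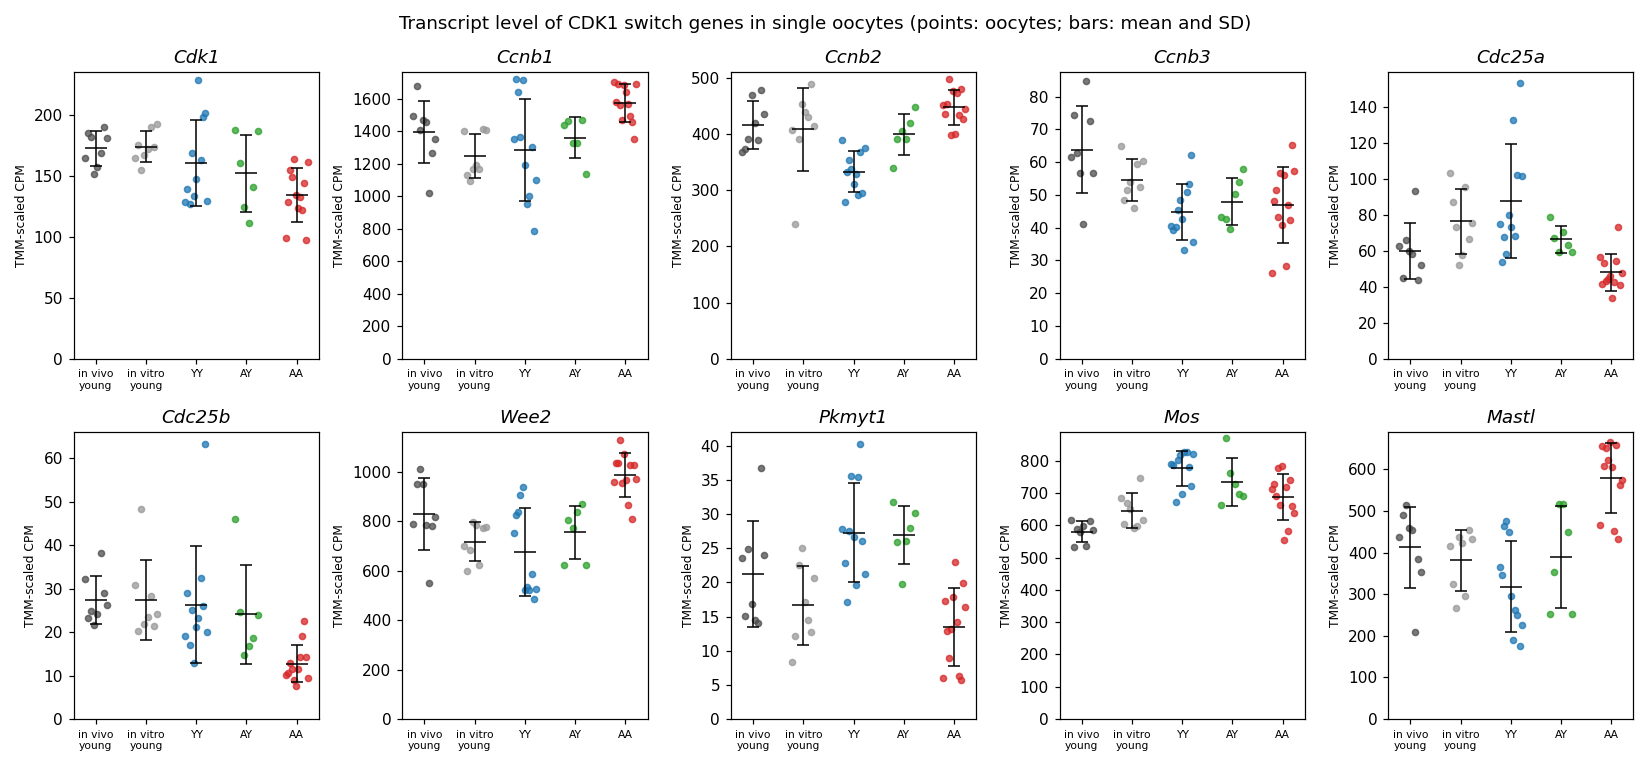
TMM-scaled CPM of each of the 10 genes in every oocyte, by group, with the mean and SD as bars. Ccnb2 in AA lies above every YY oocyte, and Cdc25b and Pkmyt1 sit lower in AA than in most YY oocytes. The YY points of Wee2 form a lower and an upper cloud, while those of Mastl spread more evenly.

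Between aged oocytes in aged cells and young oocytes in young cells, 8 of the 10 genes changed, 4 in each direction. Over all 8533 genes tested in this comparison, 27.5% were called at an adjusted p under 0.05, 12.8% higher and 14.7% lower in AA. Ccnb1, Ccnb2, Wee2 and Mastl rose, Cdc25a, Cdc25b, Pkmyt1 and Mos fell, and Cdk1 and Ccnb3 did not pass the test. With the sets of libraries as a random block, an alternative chosen after the data were seen, 5 of the 8 kept their call by limma voom. These were Ccnb2, Cdc25a, Wee2, Pkmyt1 and Mastl, where 1081 of 8533 genes tested were called. With the libraries of each set summed, 0 of the 10 were called, where only 2 of 11572 genes tested were called. All 8 stood on the same side of 0 as before, with edgeR Benjamini-Hochberg adjusted p of 0.163 to 0.633. The median log2 fold change of the 10 was -0.05, beside -0.01 over all genes tested. In this count Ccnb1, Ccnb2 and 1 inhibitory kinase thus stood on the same side. Cdc25a and Cdc25b stood on the other together with the second inhibitory kinase.

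Cdk1, the catalytic subunit (ENSMUSG00000019942, mm39 chr10:69170976-69188769), ran from 126.9 over 147.5 to 228.4 CPM in YY, from 111.4 over 150.7 to 187.4 in AY and from 97.3 over 133.4 to 164.03 in AA. Without transfer it ran from 151.2 over 174.8 to 189.7 in vivo and from 154.8 over 172.7 to 192.4 in vitro. The groups overlapped throughout, and the highest YY oocyte lay well above every AA oocyte. The means fell short of a called difference, 160 ± 35.0 CPM in YY against 134 ± 21.9 in AA, with a log2 fold change of -0.26 ± 0.11 (SE, 95% interval -0.48 to -0.04, edgeR quasi-likelihood test, Benjamini-Hochberg adjusted p = 0.0758). The unadjusted interval leaves out 0, so the missed threshold does not show equal levels. In a fit of all 45 libraries the adjusted p was 0.0494 by the same edgeR test with Benjamini-Hochberg adjustment, and the call was also gained without YY replicate 3, YY replicate 5, AA replicate 5 or AA replicate 12.

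Ccnb1, the major B-type cyclin of meiosis I (ENSMUSG00000041431, chr13:100915158-100923079), ran from 789 over 1306 to 1720 CPM in YY, from 1137 over 1383 to 1470 in AY and from 1351 over 1574 to 1707 in AA. The AA range lay inside the top part of the much wider YY range. Its mean was 1574 ± 114 in AA and 1284 ± 316 in YY, and it rose by 0.29 ± 0.09 on the log2 scale (SE, edgeR with Benjamini-Hochberg adjustment, adjusted p = 0.0166). Counts of Ccnb1 are uncertain, because the near-identical copy Ccnb1-ps on chromosome 7 had a median of 270 CPM in YY and 341 in AA, and the treatment of reads that fit both is not given.

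Ccnb2, a second B-type cyclin that can stand in for cyclin B1 at entry into meiosis (ENSMUSG00000032218, chr9:70314974-70328830), ran from 280.1 over 332.4 to 388.8 CPM in YY and from 399.4 over 448.3 to 498.1 in AA. These ranges did not overlap, which held for 0.621% of all genes tested and for none of the other 9 switch genes. AY lay between, from 339.5 over 399.2 to 447.9 CPM, overlapping both. Ccnb2 rose by 0.42 ± 0.07 in AA over YY (log2, SE, edgeR with Benjamini-Hochberg adjustment, adjusted p = 1.49e-05). Without TMM scaling the separation was lost, since the highest YY oocyte then stood at 394.9 CPM and the lowest AA oocyte at 386.9. Ccnb3, the cyclin whose loss blocks anaphase of meiosis I in mice (ENSMUSG00000051592, chrX:6845891-6907859), had nearly the same median in YY, AY and AA, 42.5, 46.7 and 47.4 CPM. Its AA minus YY difference was 0.08 on the log2 scale, with a 95% interval of -0.20 to 0.35.

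Of the activating phosphatases, Cdc25a and Cdc25b were lower in AA, while Cdc25c, which is not among the 10 genes, was higher (log2 fold change 0.87, given below). Cdc25a (ENSMUSG00000032477, chr9:109704647-109722964), a phosphatase that removes inhibitory phosphates from CDKs, ran from 53.9 over 74.8 to 153.5 CPM in YY, from 59.1 over 65.3 to 78.7 in AY and from 33.8 over 45.2 to 73.5 in AA. Most AA oocytes lay below the lowest YY oocyte, yet the ranges overlapped. Cdc25a fell by 0.90 ± 0.15 (log2, SE, edgeR with Benjamini-Hochberg adjustment, adjusted p = 2.00e-05). Cdc25b, the family member needed for meiotic resumption in female mice (ENSMUSG00000027330, chr2:131028869-131040418), ran from 12.9 over 23.3 to 63.3 CPM in YY, from 14.8 over 21.3 to 46.0 in AY and from 7.68 over 11.5 to 22.6 in AA. The AA median lay below every YY and AY oocyte, although the upper AA oocytes overlapped both groups. Cdc25b fell by 1.06 ± 0.24 (log2, SE, edgeR with Benjamini-Hochberg adjustment, adjusted p = 0.000874). The highest YY value came from replicate 10, with the next YY oocyte at 32.6 CPM. Without replicate 10 the log2 fold change was -0.82 and was still called. The antisense gene Spef1 overlaps Cdc25b, with a median of 0 and at most 5.01 CPM, and the strand setting of the counting is not given.

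The 2 inhibitory kinases moved in opposite directions. Wee2, the oocyte-specific member of the Wee family (ENSMUSG00000037159, chr6:40416022-40443748), ran from 485.7 over 585.2 to 939.4 CPM in YY, from 622.4 over 788.4 to 869.3 in AY and from 808.4 over 997.3 to 1127 in AA. The AA range began inside the upper part of the YY range. Wee2 rose by 0.55 ± 0.10 (log2, SE, edgeR with Benjamini-Hochberg adjustment, adjusted p = 0.000103). Pkmyt1, the membrane-bound relative of WEE2 (ENSMUSG00000023908, chr17:23945310-23955710), ran from 17.1 over 26.6 to 40.2 CPM in YY, from 19.8 over 27.0 to 31.8 in AY and from 5.65 over 13.7 to 23.0 in AA. YY and AY nearly coincided, and AA reached up into both. Pkmyt1 fell by 0.97 ± 0.21 (log2, SE, edgeR with Benjamini-Hochberg adjustment, adjusted p = 0.000464). Its antisense neighbour Paqr4 overlaps it with a median of 9.76 and at most 21.6 CPM, a level near that of Pkmyt1 itself, so without knowledge of strand these reads cannot be told apart.

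Mos, the kinase that starts the MAP kinase arm (ENSMUSG00000078365, chr4:3870657-3872106), ran from 671.9 over 790.4 to 826.6 CPM in YY, from 662.2 over 711.2 to 871.2 in AY and from 553.1 over 700.9 to 784.5 in AA. The groups overlapped widely. Mos fell by 0.18 ± 0.07 (log2, SE, edgeR with Benjamini-Hochberg adjustment, adjusted p = 0.0442), a call that was lost when any 1 of 14 of the 29 libraries was left out. Mastl, the Greatwall kinase (ENSMUSG00000026779, chr2:23005618-23046037), ran from 176.8 over 294.9 to 476.1 CPM in YY, from 251.7 over 402.1 to 516.2 in AY and from 433.9 over 607.2 to 665.4 in AA. Only the lowest AA oocytes reached down into the YY range. Mastl rose by 0.86 ± 0.16 (log2, SE, edgeR with Benjamini-Hochberg adjustment, adjusted p = 0.000265).

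The YY libraries fall into 2 series by the library number in the labels, S198 to S202 (n = 5) and S225 to S231 (n = 6), and several switch genes differed between them. Wee2 ran from 749.8 to 939.4 CPM in the lower-numbered series and from 485.7 to 585.2 in the other. Mastl ran from 346.4 to 476.1 CPM in the first and from 176.8 to 294.9 in the second. Ccnb1 ran from 1350 to 1720 CPM in the first and from 789 to 1306 in the second. These 3 of the 10 genes did not overlap between the series, where 5.59% of all genes tested did not. Cdc25a leaned the other way, with a mean of 67.0 ± 10.9 CPM (SD, n = 5) in the first and 105 ± 33.2 (SD, n = 6) in the second. Ccnb2, with means of 339 ± 39.5 and 328 ± 36.2 CPM, Mos, with 774 ± 58.1 and 779 ± 56.7, and Pkmyt1, with 26.2 ± 6.82 and 28.2 ± 8.08, kept nearly the same level in both. Mitochondrially encoded genes took a median of 0.106% of counts in the first series, 0.392% in the second and 0.118% in AA, and their part in the difference was not tested.

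Against YY S198 to S202 alone, 2 of the 10 genes were called in AA and the other 8 were not. Over all genes, 451 of 8311 tested were called in that fit, which holds 5 YY libraries in place of 11. Ccnb2 rose by 0.39 (adjusted p = 0.00424) and Pkmyt1 fell by 0.92 (adjusted p = 0.0322), both by edgeR with Benjamini-Hochberg adjustment. Ccnb1 stood at 0.01, Wee2 at 0.20 and Mastl at 0.45 on the log2 scale, with edgeR Benjamini-Hochberg adjusted p of 0.979, 0.166 and 0.0770. Cdc25a stood at -0.51, Cdc25b at -0.67 and Mos at -0.18, with adjusted p of 0.0511, 0.176 and 0.221 by the same edgeR test. Against YY S225 to S231 alone, 8 of the 10 genes were called, where 3151 of 8260 genes tested were called. Cdk1 was among the 8, lower by a log2 fold change of -0.41 (edgeR, Benjamini-Hochberg adjusted p = 0.00760). Mos was not called (adjusted p = 0.0541 by the same edgeR test). Wee2 was higher by 0.89 and Mastl by 1.31 on the log2 scale in that comparison. All AA libraries carry numbers of their own, S268 to S279, so number series and group cannot be told apart in AA.

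**Figure D2:**
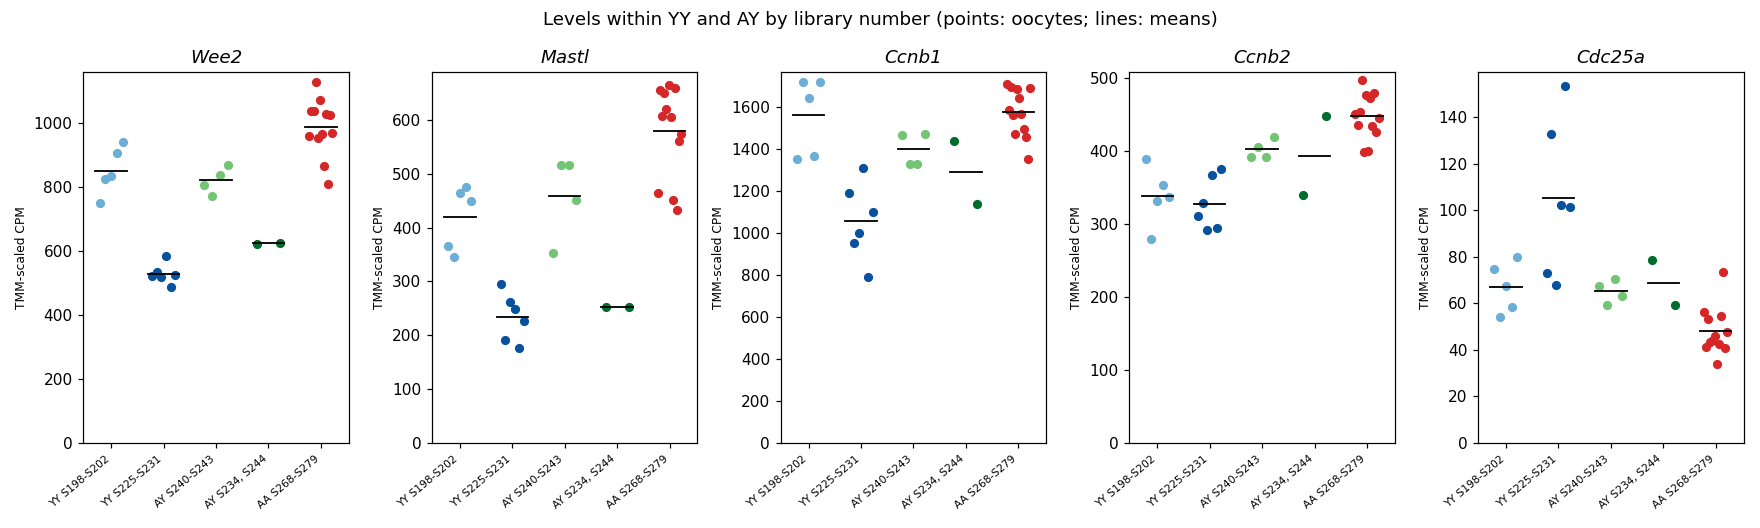
TMM-scaled CPM of Wee2, Mastl, Ccnb1, Ccnb2 and Cdc25a in each oocyte of YY and AY by library number, beside AA, with lines at the means. Ranges of Wee2 and Mastl do not overlap between the YY series or between the AY sets, while Ccnb2 is at about the same level in both YY series.

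Aged oocytes in young somatic cells differed from aged oocytes in aged somatic cells in 3 of the 10 genes, while 6.59% of all genes tested were called, 3.52% higher and 3.07% lower in AY. The 3 were Cdc25b and Pkmyt1, higher in AY, and Wee2, lower. This comparison and the one of AA with YY share the AA libraries, so the values are set side by side and opposite signs are no separate support. Cdc25b had a mean of 24.1 ± 11.4 CPM in AY (SD, n = 6) against 12.8 ± 4.32 over the 12 AA oocytes. The difference was 0.95 ± 0.28 on the log2 scale (SE, edgeR with Benjamini-Hochberg adjustment, adjusted p = 0.0336), and it fell to 0.64 and was not called without AY replicate 1, whose 46.0 CPM stood far above the 24.6 CPM of the next AY oocyte. The call was also lost without AY replicate 2, AY replicate 6 or AA replicate 5.

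Pkmyt1 had a mean of 26.9 ± 4.22 CPM in AY and 13.5 ± 5.76 in AA, and stood higher by 0.95 ± 0.24 (log2, SE, edgeR with Benjamini-Hochberg adjustment, adjusted p = 0.0139), a call lost without AY replicate 1. Wee2 had a mean of 755 ± 107 CPM in AY and 987 ± 87.7 in AA, and stood lower by a log2 fold change of -0.39 ± 0.12 (SE, edgeR with Benjamini-Hochberg adjustment, adjusted p = 0.0446), lost when any 1 of 15 of the 29 libraries was left out. Of the 7 genes not called, Mastl stood at -0.58 (95% interval -0.97 to -0.19) and Cdc25a at 0.48 (0.12 to 0.83), while Ccnb3 stood at 0.00 (-0.33 to 0.34). Ccnb2 stood at -0.17 (-0.33 to -0.01), Ccnb1 at -0.21 (-0.43 to 0.01), Cdk1 at 0.18 (-0.08 to 0.44) and Mos at 0.09 (-0.07 to 0.25). Several of these unadjusted intervals leave out 0, so equality is not shown for them.

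AY holds 2 of the sets named above, which were drawn from these same data. How many of all genes separate these 2 sets was not counted, so the gaps given here have no background beside them. Libraries S234 and S244 (n = 2) held Wee2 at 622 and 624 CPM and Mastl at 252 and 253 CPM, whereas libraries S240 to S243 (n = 4) held Wee2 at 772 to 869 CPM and Mastl at 353 to 516 CPM. The summed granulosa markers were 117 and 208 CPM in the first 2 and 71.5 to 128.04 CPM in the other 4. Mitochondrially encoded genes took 0.268% and 0.405% of counts in the first 2 and 0.159% to 0.212% in the other 4, without overlap. The part of either in the difference was not tested. Without libraries S234 and S244, an alternative chosen after the data were seen, Cdc25b stood at 0.56, Wee2 at -0.26 and Pkmyt1 at 0.84 on the log2 scale in AY against AA, and none of the 10 genes was called by edgeR with Benjamini-Hochberg adjustment. With the sets of libraries as a random block the values were 1.00, -0.44 and 1.01 and again none of the 10 was called. Their limma voom Benjamini-Hochberg adjusted p were 0.178, 0.0970 and 0.122. Nor was any of the 10 called with each set summed. Over all genes, 147 of 8879 were called without S234 and S244, 80 of 8533 with the random block and 1 of 11572 summed.

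**Figure D3:**
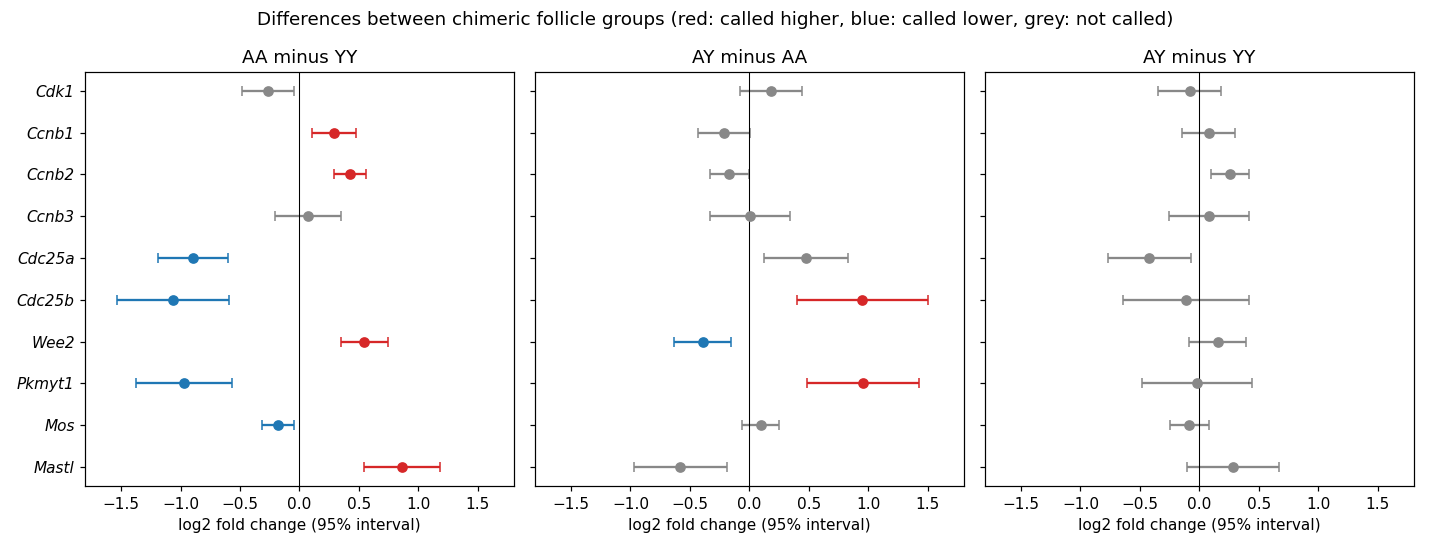
Log2 fold change with its 95% interval for the 10 genes in the 3 comparisons among chimeric follicles, red where called higher, blue where called lower and grey where not called. Of the 10 genes, 8 are coloured in AA minus YY, 3 in AY minus AA and 0 in AY minus YY.

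With young somatic cells around both, aged and young oocytes differed in 0 of the 10 genes by edgeR with Benjamini-Hochberg adjustment, where 1.62% of all genes tested were called, 0.715% higher and 0.902% lower in AY. At an unadjusted p under 0.05 there were 2, Ccnb2 and Cdc25a, and DESeq2 called 1. Ccnb2 stood at 0.26 ± 0.08 on the log2 scale (SE, 95% interval 0.09 to 0.42, edgeR, Benjamini-Hochberg adjusted p = 0.109) and Cdc25a at -0.42 ± 0.18 (SE, interval -0.77 to -0.07). Pkmyt1 stood at -0.02 (interval -0.48 to 0.44), Cdc25b at -0.11 (-0.65 to 0.42), Wee2 at 0.15 (-0.09 to 0.39) and Mastl at 0.28 (-0.10 to 0.67). These intervals are wide, and equality is not shown for any of the 4. Against YY S225 to S231 alone, 5 of the 10 were called in AY, with Ccnb1, Ccnb2, Wee2 and Mastl higher and Cdc25a lower. In that fit 847 of 8260 genes tested were called. Against YY S198 to S202 alone, 0 of the 10 were called, where 134 of 8311 genes tested were called. Wee2 then stood at -0.18 and Mastl at -0.12, on the other side of 0.

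Reconstitution and culture were examined in young oocytes alone. Between YY and in vitro young oocytes, 1 of the 10 genes was called, where 2.48% of 8749 genes tested were called, 0.777% higher and 1.7% lower in YY. Mos ran from 592.3 over 633.5 to 747.4 CPM in vitro and, as above, from 671.9 upward in YY, with partial overlap. It stood higher in YY by 0.26 ± 0.07 (log2, SE, edgeR with Benjamini-Hochberg adjustment, adjusted p = 0.0361), a call lost when any 1 of 5 of the 27 libraries was left out. It was also lost with the sets of libraries as a random block (limma voom, Benjamini-Hochberg adjusted p = 0.114) or summed (edgeR, Benjamini-Hochberg adjusted p = 0.566), with either other filter, with the replicate block, with genes detected as a covariate and with YY S198 to S202 alone. Pkmyt1 stood at 0.72 ± 0.23 (interval 0.28 to 1.17) and Ccnb2 at -0.30 ± 0.10 (interval -0.49 to -0.11), with edgeR Benjamini-Hochberg adjusted p of 0.0707 and 0.0867. Both were called by DESeq2, and Ccnb2 was called by edgeR without in vitro young replicate 2. Against the S225 to S231 series of YY alone, Wee2 stood at -0.44 and Mastl at -0.71 on the log2 scale and both were called lower in YY. In that fit 3 of the 10 were called, Mos among them, and 803 of 8925 genes tested. Against the S198 to S202 series alone, 0 of the 10 were called, where 99 of 8996 genes tested were called. Wee2 then stood at 0.25 and Mastl at 0.15.

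Between in vitro and in vivo young oocytes, 0 of the 10 genes were called by edgeR, where 0.137% of all genes tested were called, 0.126% higher and 0.0114% lower in vitro, and DESeq2 also called 0. At an unadjusted p under 0.05 there was 1, Mos, with a mean of 645 ± 53.9 CPM in vitro and 580 ± 31.4 in vivo (SD, n = 8 each). Its log2 fold change was 0.16 ± 0.08 (SE, interval 0.01 to 0.31). The widest interval was that of Pkmyt1, -0.83 to 0.12, and the narrowest that of Mos. Means of the in vivo oocytes were 1395 ± 192 CPM for Ccnb1, 416 ± 42.6 for Ccnb2, 828 ± 145 for Wee2 and 413 ± 97.6 for Mastl. On the same scale Wee2 had a mean of 717 ± 77.7 CPM in vitro and Mastl 382 ± 73.7.

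Within single oocytes the genes could be set against each other. The log2 difference between Wee2 and Cdc25b, which sets the oocyte inhibitor over the resumption phosphatase, had a mean of 6.34 in AA, with an SD of 0.52, and of 4.76 in YY, with an SD of 0.85. That is a ratio of CPM of 80.8 in AA, 27.1 in YY, 33.5 in AY, 30.2 in vivo and 27.1 in vitro, not corrected for gene length and given as a description. Single oocytes ran from 5.16 to 7.13 in AA and from 2.94 to 6.19 in YY, so the groups overlapped. The YY series differed in it without overlap. Its ratio was 42.8 in S198 to S202 (log2 from 4.83 to 6.19) and 18.5 in S225 to S231 (2.94 to 4.71). Wee2 over Cdc25a separated the series too. The other ratios computed overlapped between them, namely Mastl over Cdc25b, Wee2 over Pkmyt1, and Ccnb1 over Cdk1 or Ccnb2. How many pairs among all genes separate the series was not counted. The ratio of Wee2 to Pkmyt1, the 2 inhibitory kinases, was 80.6 in AA, 24.8 in YY, 28.1 in AY, 40.6 in vivo and 45.4 in vitro. In the same YY series it was 33.4 and 19.4. Ccnb1 over Cdk1 was 11.9 in AA, 7.95 in YY (11.2 and 5.97 in the 2 series) and 9.10 in AY. Ccnb1 over Ccnb2 was 3.51 in AA, 3.77 in YY (4.60 and 3.19 in the 2 series), 3.40 in AY, 3.34 in vivo and 3.09 in vitro.

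Across all 45 oocytes, which share groups, library series and depth, Wee2 and Mastl went together with a Pearson r of 0.93 in log2 CPM, and of 0.88 after the group means were taken out. Ccnb1 went with Wee2 at 0.82 and with Mastl at 0.78, or 0.75 and 0.71 within groups. Cdc25a went against both, at -0.77 with each, or -0.58 with Wee2 and -0.60 with Mastl within groups. Cdc25b went against Wee2 at -0.68 and Mastl at -0.74, or -0.53 and -0.64 within groups. The oocytes with more Wee2 and Mastl mRNA thus held less Cdc25a and Cdc25b mRNA in these libraries, also with the group means taken out. The gaps between the YY series and between the AY sets stay in the values within groups, and no r within a series was computed. Pkmyt1 and Mos had an r of 0.11 and 0.14 to Wee2 within groups. Pkmyt1 went against Cdc25a within groups at -0.43, and Mos went with Ccnb2 at 0.35.

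**Figure D4:**
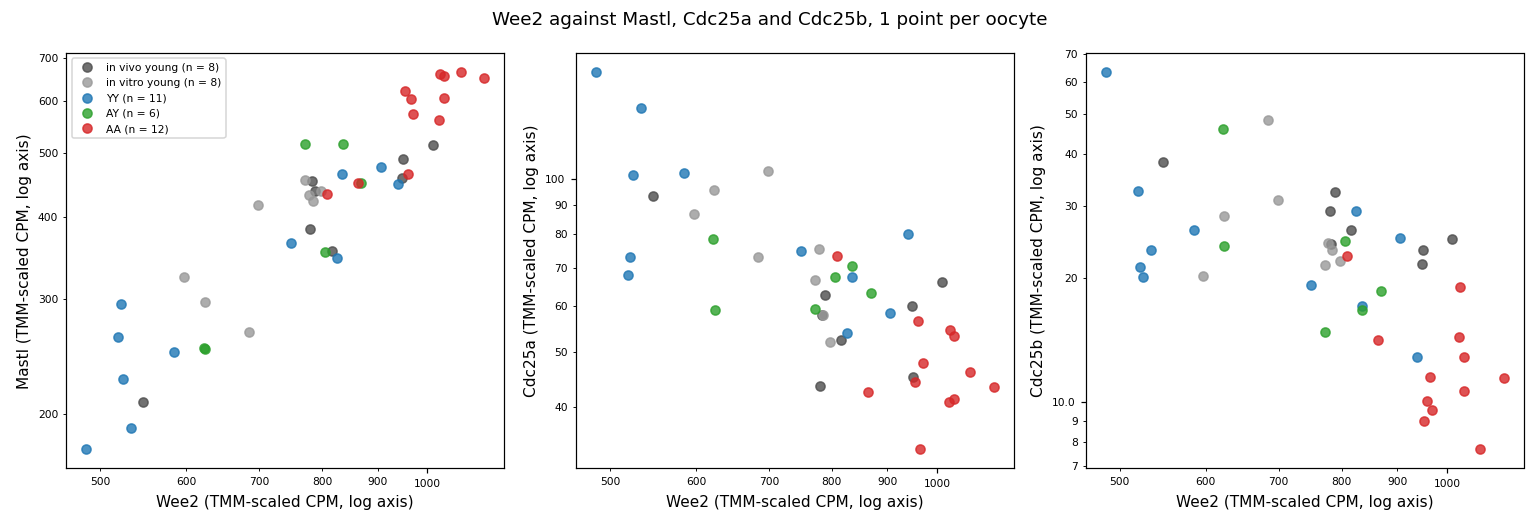
Wee2 against Mastl, Cdc25a and Cdc25b in each of the 45 oocytes, in TMM-scaled CPM on log axes and coloured by group. Wee2 and Mastl rise together (r = 0.93) and Wee2 runs against Cdc25a (r = -0.77) and Cdc25b (r = -0.68).

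Of 8057 genes compared, the genes named here whose log2 CPM over the 45 oocytes ran most like Cdk1 were Dop1b (r = 0.73), Ubqln1 (0.69), Dppa5a (0.68) and Fam107b (0.66). Those most like Ccnb1 were Atl2 (r = 0.86), its copy Ccnb1-ps (0.85), Naa11 (0.85), Asf1b (0.83) and Dnah7c (0.81). The likeness of Ccnb1-ps is uncertain, because both may share reads.

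Other genes of the pathway were read from lists by role, and in AA against YY 15 of the 44 tested were called, beside the 27.5% of all genes tested that were called, so the share was near that of all genes. Of 2 other Wee and Cdc25 relatives, 1 was tested and called: Cdc25c, the third Cdc25 phosphatase, rose by 0.87 ± 0.21 (log2, SE, edgeR with Benjamini-Hochberg adjustment, adjusted p = 0.00146). Its mean level was 16.0 ± 5.20 CPM in YY and 28.9 ± 9.90 CPM in AA (SDs over 11 and 12 oocytes), so it moved opposite to Cdc25a and Cdc25b. Of 7 CDK1 partners and subunits of the CDK-activating kinase, 1 was higher and 0 lower, with Cdk7, which phosphorylates the activating loop of CDKs, at 0.24. In the Greatwall and PP2A arm, 1 of 9 was higher and 1 lower. Ppp2ca, a catalytic subunit of PP2A, fell by 1.35 ± 0.23 (log2, SE, edgeR with Benjamini-Hochberg adjustment, adjusted p = 2.28e-05), from 38.6 ± 17.8 to 15.3 ± 4.09 CPM, and the scaffold subunit Ppp2r1b rose by 0.70. In the MAP kinase arm below Mos, 0 of 5 were higher and 1 lower, Mapk3 by a log2 fold change of -0.94 ± 0.17 (SE, edgeR with Benjamini-Hochberg adjustment, adjusted p = 0.000146).

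Among 4 genes of the Polo and Aurora feedback, 2 were higher and 0 lower. Bora, which helps Aurora A activate PLK1, rose by 0.95 ± 0.14 (log2, SE, edgeR with Benjamini-Hochberg adjustment, adjusted p = 5.98e-06), from 70.7 ± 16.3 to 138 ± 38.1 CPM, and Aurka rose by 0.23. Of 7 genes of cyclin B synthesis and destruction, 1 was higher and 2 lower. Cpeb1, which binds stored mRNAs such as that of cyclin B1 and controls their translation, rose by 0.53 ± 0.13 (log2, SE, edgeR with Benjamini-Hochberg adjustment, adjusted p = 0.00234), and its relative Cpeb4 fell by 1.02. Of 11 arrest inputs, 3 were higher and 2 lower. Gpr3, the receptor that keeps cyclic AMP high in the oocyte, fell by 0.95 ± 0.21 (log2, SE, edgeR with Benjamini-Hochberg adjustment, adjusted p = 0.000534), from 44.6 ± 14.7 to 22.8 ± 8.07 CPM, and Prkar1a, a regulatory subunit of protein kinase A, rose by 0.48. List medians ran from -0.09 in the MAP kinase arm to 0.23 in the Polo and Aurora list, leaving aside the list with 1 tested gene, beside -0.01 over all genes.

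In AY against AA, 3 of these 44 genes were called, beside 6.59% of all genes, so here too the share was near that of all genes. Ppp2ca was higher by 0.88 ± 0.27 and Mapk3 by 0.92 ± 0.20, with edgeR Benjamini-Hochberg adjusted p of 0.0414 and 0.00609, and Bora was lower, at -0.67 ± 0.17 (log2, SE), with an adjusted p of 0.0157. Mapk3 stood at 167 ± 53.7 CPM in AY, 169 ± 50.8 in YY and 87.8 ± 22.1 in AA. In AY against YY, where 1.62% of all genes were called, 1 was called, Cpeb4, lower at -0.94 ± 0.22 (log2, SE, edgeR with Benjamini-Hochberg adjustment, adjusted p = 0.0146), with 42.9 ± 15.8 CPM in AY and 41.2 ± 12.1 in AA against 82.1 ± 25.2 in YY. In YY against in vitro young, where 2.48% of all genes were called, 1 was called, Bora, lower in YY at -0.55 ± 0.15 (edgeR, Benjamini-Hochberg adjusted p = 0.0415), and 0 were called by edgeR between in vitro and in vivo young.

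**Figure D5:**
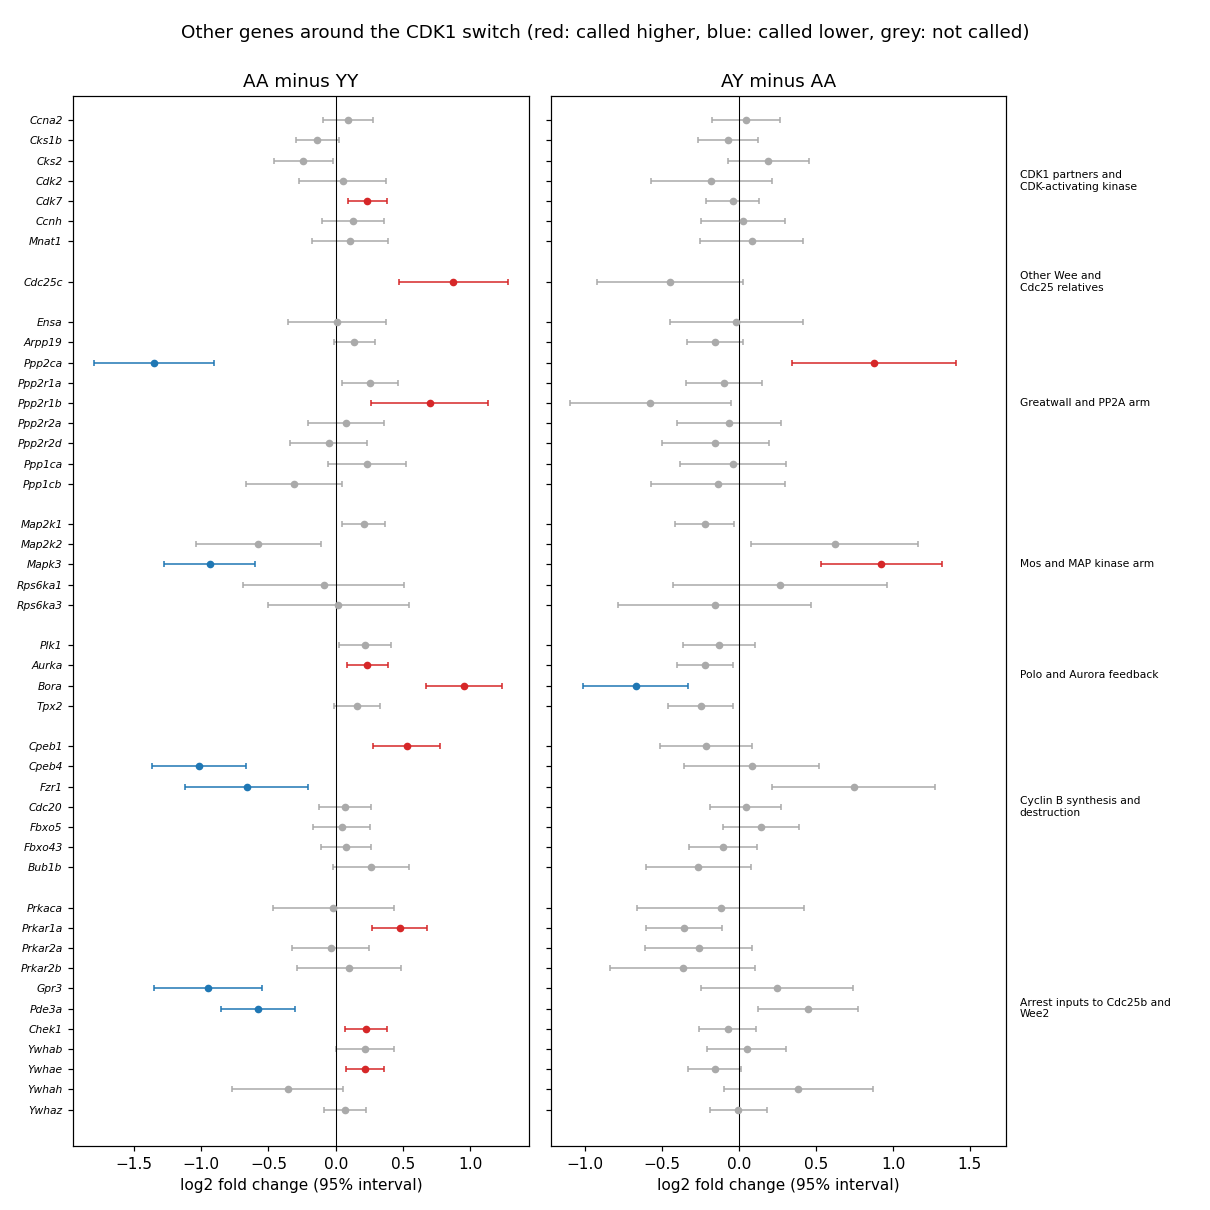
Log2 fold change with its 95% interval for the other pathway genes, in AA minus YY and AY minus AA, grouped by role and coloured as called higher, called lower or not called. Ppp2ca, Mapk3 and Bora are the genes coloured in both panels, with opposite sides of 0.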

How the data were processed

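Each of 45 mouse oocytes was lysed singly and its cDNA amplified with 16 PCR cycles and enriched with 8 more, per the labels' protocols. The deposited values are whole-number read counts per gene, not normalized. STAR 2.7.8a, HTSeq 0.11.0 and the build mm39 are named in the submitters' processing notes, and strand and the handling of shared reads are not given in the sources used here. Reads carry no molecular identifiers, so counts are not molecules. Gene coordinates are those of the deposited table (mm39). Exon lengths and the CDK1 site are from GENCODE M21 and promoters from RefSeq, both GRCm38.

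Groups came from the sample titles. Counts were fitted with edgeR 4.0.16 in R 4.3.3 (TMM, filterByExpr with a minimum count of 10 and total of 15, robust quasi-likelihood test), with Benjamini-Hochberg adjustment over all genes tested and calls at an adjusted p under 0.05. All 10 genes passed the filter in every fit. AA, AY and YY shared 1 fit, and YY and both controls another. Standard errors were derived from the F statistic and 95% intervals from them, unadjusted. Levels and correlations used TMM over all 45 libraries, and correlations a prior count of 2. Every pair of libraries within a group differed by more than counting noise.

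The 10 genes and all lists were chosen with earlier results of these data known. All 10 are named in every comparison. Of each other list up to 2 called genes with the smallest p are named per comparison, and for Cdk1 and Ccnb1 the 5 genes with the highest r, predicted and clone-derived models left out. Of the genes these rules cover, 2 are not reported here. Alternatives were RLE factors, DESeq2 1.42.0, 2 other filters, all libraries in 1 fit, a replicate block, genes detected as a covariate, either YY series alone and leaving out each library. Chosen after the data were seen were leaving out AY libraries S234 and S244 or in vivo library S74, and sets of libraries, summed or as a random block (limma 3.58.1, voom). The 15 sets are libraries of 1 group with the same pattern over 12 genes that were near absent in some libraries and abundant in others, with a gap of at least 3 on the log2 scale. On simulated data with 200 changed genes, edgeR found 50% of the 1.5-fold, 85.5% of the 2-fold and 100% of the 4-fold changes in AA against YY (8278 genes tested, 9 called falsely). In AY against AA these shares were 29%, 67.1% and 98.5% (8285 genes tested, 4 called falsely). The simulated libraries were drawn independently, with no sets or number series. These shares and false calls therefore do not cover libraries that share a set or series, as the real ones do.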

Additional observations from a re-analysis of the deposited data

Results flagged for a closer look

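In 5 of 30 gene and group pairs with 6 or 8 oocytes, the highest or lowest oocyte lay apart from the rest by Dixon's criterion, which chance meets in about 1 of 20 groups. Cdc25b stood at 46.0 CPM in AY replicate 1, with the next AY oocyte at 24.6 CPM. Without that oocyte the AY minus AA difference of Cdc25b was 0.64 on the log2 scale and was not called. Cdc25b also stood at 48.4 CPM in in vitro young replicate 3, with the next oocyte of that group at 30.9 CPM. Ccnb2 stood at 240.5 CPM in in vitro young replicate 2, below 391.2 CPM in the next oocyte, and without it Ccnb2 was called lower in YY than in vitro, with a log2 fold change of -0.37. Cdc25a stood at 93.3 CPM in in vivo young replicate 6, with the next at 66.2 CPM. Pkmyt1 stood at 36.8 CPM in in vivo young replicate 7, with the next at 24.8 CPM.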

How the results depend on the processing

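No call of the 10 genes changed sign under any alternative run. Calls of switch genes were kept in 91 of 130 cases under alternatives other than leaving out 1 library and in 307 of 346 cases when 1 library was left out, and lost in the others. Of uncalled results 18 and 10 became called.

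The count of called genes moved with the choice of libraries and of the unit of replication. Against YY S198 to S202 alone it was 451 in AA and 99 for YY against in vitro young, and against YY S225 to S231 alone 847 in AY and 803 for YY against in vitro young. With sets of libraries as a random block it was 1081 for AA against YY, 80 for AY against AA, 22 for AY against YY, 88 for YY against in vitro young and 0 for in vitro against in vivo young (limma voom, 597 at an unadjusted p under 0.05). With the libraries of each set summed, edgeR called 2, 1, 0, 0 and 0 genes in the same order, with 617, 950 and 678 at an unadjusted p under 0.05 in the last 3. Of the 10 switch genes, 5 kept their AA against YY call under the random block (Ccnb2, Cdc25a, Wee2, Pkmyt1 and Mastl) and 0 when summed, and 0 kept their AY against AA or YY against in vitro young call under either. Without AY libraries S234 and S244 the AY against AA count was 147. DESeq2 called 412 genes for YY against in vitro young and 46 for in vitro against in vivo young. Without a filter 236 genes were called for AY against YY and 29 for in vitro against in vivo young. In a fit of all 45 libraries 378 were called for YY against in vitro young and 29 for in vitro against in vivo young. With genes detected as a covariate these were 71 and 0 (edgeR, 659 at an unadjusted p under 0.05). Leaving out each library gave 203 to 669 for AY against AA, 84 to 155 for AY against YY, 114 to 352 for YY against in vitro young and 0 to 18 for in vitro against in vivo young. The cause of these moves was not tested.

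The replicate block gave 1078 calls for AY against AA, 115 for YY against in vitro young and 6 for in vitro against in vivo young. In AY against AA it called 6 switch genes, among them Ccnb1, Cdc25a and Mastl, which the main fit did not call. Deviations of same-numbered oocytes from their group means had r from -0.21 to 0.24. The same-numbered oocyte was the closest match in 2 of 11 pairs for AA and YY and 0 of 6 for AY and AA. It was so in 3 of 6 for AY and YY, 1 of 8 for YY and in vitro young, and 2 of 8 for the controls. The labels do not say whether the numbers pair oocytes, and these values do not settle it. Under the replicate block Ccnb1 was -0.045, Cdc25b 0.20 and Pkmyt1 0.033 in AY against YY.

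Some uncalled values changed sign, by YY series and under other alternatives. Against YY S198 to S202 alone, AY stood at 0.13 for Cdk1, -0.20 for Ccnb1, 0.29 for Cdc25b, -0.18 for Wee2, 0.041 for Pkmyt1 and -0.12 for Mastl, and YY over in vitro young at -0.18 for Cdc25a, 0.25 for Wee2 and 0.15 for Mastl. With YY S225 to S231 alone, YY over in vitro young was 0.038 for Cdk1, -0.24 for Ccnb1 and 0.21 for Cdc25b. Ccnb3 in AY against AA was -0.0029 by DESeq2, -0.020 without a filter, -0.034 with the covariate, -0.055 with the random block, -0.082 summed and -0.025 without libraries S234 and S244. In AY against YY, Cdc25b was 0.046 and Pkmyt1 0.026 with the random block, and Cdc25b 0.12 and Cdk1 0.024 summed. With the covariate, Ccnb1 was -0.054 and Cdc25b 0.065 for YY over in vitro young, and Cdk1 -0.020 and Mastl 0.025 for in vitro over in vivo young. Summed, Wee2 was 0.0050 for YY over in vitro young and Cdk1 -0.00036 for in vitro over in vivo young, and without in vivo library S74 Cdc25b was 0.071 there. Leaving out each library gave ranges across 0 for Ccnb1 (-0.0081 to 0.098) and Cdc25b (-0.28 to 0.12) in YY over in vitro young, for Ccnb2 (-0.066 to 0.060), Cdc25b (-0.19 to 0.071) and Cdk1 (-0.011 to 0.034) in in vitro over in vivo young, for Ccnb3 (-0.052 to 0.060) in AY against AA, and for Cdc25b (-0.43 to 0.14) and Pkmyt1 (-0.080 to 0.063) in AY against YY.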
